A study of Caenorhabditis elegans with 18 samples.

Results

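The tdp-1 mutant was compared directly with the fust-1 mutant, using the 3 libraries of each strain, 6 of the 18 libraries of the series. The libraries were taken by their genotype labels, and no wild-type library entered a fold change. Of 46726 gene IDs in the count tables, 16803 had enough reads in these 6 libraries to be tested, and 20316 had none. Each library held poly(A) RNA from whole Caenorhabditis elegans synchronised at the fourth larval stage (L4), and the study describes the 3 libraries of a genotype as biological replicates. The tdp-1 strain carried the csb38 allele, a CRISPR/Cas9 deletion marked with an inserted myo-3::GFP reporter, which is active in body wall muscle. The fust-1 strain carried csb21, the same kind of deletion marked with myo-2::GFP, which is active in pharyngeal muscle. One allele per gene was sequenced, so the lost gene, the marker and anything else particular to a strain cannot be told apart. The other 12 libraries were from 2 double mutants that also lack the homeobox gene ceh-14 (written tdp-1; ceh-14 for the first and fust-1; ceh-14 for the second), the ceh-14 mutant and wild type, 3 of each, and they are given only where they show where a level stands.

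TDP-1 and FUST-1 are nuclear RNA-binding proteins. Both bind pre-mRNA and take part in splicing and in other steps of RNA processing. The direct contrast asks how the transcriptomes left by the loss of either protein differ from each other.

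The 6 libraries held 33591733 to 69447549 reads assigned to genes. Levels are CPM (counts per 1000000 assigned reads) on library sizes scaled by the trimmed mean of M values (TMM), and log2 fold changes are tdp-1 over fust-1 from edgeR's quasi-likelihood test. A gene was called where the log2 fold change passed 1 in either direction with an adjusted p (Benjamini-Hochberg over all genes tested) under 0.01. The fust-1 libraries differed from each other more than the tdp-1 libraries did. Their pairwise chi-square per degree of freedom was 146 to 746, against 33.6 to 64.2 among tdp-1 libraries. The library fust-1 C stood apart, with 12.2% of its reads mapping to several positions against 5.92% to 7.95% in the other 5 libraries, and values without it are given beside many of the results that it moves.

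The targeted genes were examined first. Transcript of tdp-1 was present at 13.8, 17.02 and 14.3 CPM in the tdp-1 libraries, against 96.9, 85.0 and 123 CPM in the fust-1 libraries. It fell in tdp-1 (log2 fold change -2.74 ± 0.189 (SE), adjusted p = 0.00799, edgeR), the groups did not overlap, and wild type held 93.5 ± 13.5 CPM (SD, n = 3). Transcript of fust-1 was present at 145, 164 and 176 CPM in the tdp-1 libraries, against 51.4, 35.5 and 38.1 CPM in the fust-1 libraries. The fust-1 difference was 1.96 ± 0.197 (SE, log2) with an adjusted p of 0.0513, which missed the threshold although the groups did not overlap, and wild type held 156 ± 11.7 CPM (SD, n = 3). Each strain therefore had less of its own deleted gene's transcript than the other, and in neither was that transcript absent.

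Between the strains, 3 genes were called, which is 0.0179% of those tested (0.00595% higher and 0.0119% lower in tdp-1), and tdp-1 was one of them. The other 2 were ctl-1, higher in tdp-1, and T03D3.5, lower in tdp-1, and in each case one strain had almost no reads. Without any 1 library other than fust-1 C no gene was called, although ctl-1 and T03D3.5 kept an adjusted p of 0.0342 or less in all 6 fits with a library left out. D1014.6 joined them at an adjusted p under 0.05, which 0.0238% of genes passed (0.0119% in each direction). At an unadjusted p under 0.05 there were 2819 genes (16.8%), 1621 higher and 1198 lower in tdp-1. The DESeq2 Wald test on the same libraries called 511 genes (3.04%), 389 higher (2.32%) and 122 lower (0.727%), and edgeR with all 18 libraries in 1 fit called 107 (0.637%), 59 higher (0.351%) and 48 lower (0.286%).

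The gene ctl-1 encodes a cytosolic catalase, an enzyme that breaks down hydrogen peroxide, and lies on chromosome II (WBcel235, positions 14303568 to 14306260, minus strand). It had 7.87, 8.73 and 8.77 CPM in the tdp-1 libraries, against 0.0176, 0 and 0.0162 CPM in the fust-1 libraries. In reads, that was 1206 across the tdp-1 libraries and 2 across the fust-1 libraries, a ratio of 650 with a 95% counting interval of 180 to 5376 (exact binomial, counting error only). It rose in tdp-1 by a log2 fold change of 9.12 ± 0.434 (SE, adjusted p = 0.00136, edgeR). Wild type held 7.84, 7.42 and 7.64 CPM, close to the tdp-1 libraries, so the fust-1 strain was the one at odds with wild type. The fust-1; ceh-14 libraries held 0, 0 and 0.0411 CPM, so ctl-1 reads were nearly missing in all 6 libraries that carry the fust-1 allele.

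The catalase genes ctl-2 and ctl-3 flank ctl-1, at 1541 and 1538 bases from it. The peroxisomal catalase gene ctl-2 had 79.7, 85.4 and 94.0 CPM in tdp-1, against 118, 83.2 and 81.7 CPM in fust-1. The third catalase gene, ctl-3, had 4.79, 4.93 and 5.002 CPM in tdp-1, against 5.92, 3.84 and 2.61 CPM in fust-1. Both groups overlapped for both neighbours, with log2 differences of -0.12 ± 0.195 and 0.25 ± 0.331 (SE, adjusted p = 0.775 and 0.717, edgeR). Of the 4 other genes tested within 10 kb of ctl-1, these 2 included, Y54G11A.4 had an unadjusted p under 0.05, with 5.76, 7.17 and 5.74 CPM in tdp-1, against 2.33, 4.22 and 3.19 CPM in fust-1 (log2 difference 0.94, no overlap). The 3 catalase genes resemble each other, and the assignment of reads between them rests on the authors' alignment. The neighbours were named after their values were seen.

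T03D3.5 is a protein-coding gene on chromosome V (positions 2823806 to 2826835, minus strand). It had 0.0894, 0.196 and 0.0966 CPM in the tdp-1 libraries, against 15.05, 14.7 and 18.97 CPM in the fust-1 libraries. That was 17 reads in tdp-1 and 2556 in fust-1, a level 139 times higher in fust-1 once library size is taken into account (95% counting interval 86.9 to 240). It fell in tdp-1 by 7.02 ± 0.355 on the log2 scale (SE, adjusted p = 0.00136, edgeR). Wild type held 16.5, 13.8 and 17.1 CPM and the tdp-1; ceh-14 libraries held 15.3, 16.6 and 19.3 CPM, so of the 6 genotypes the tdp-1 strain alone lacked it. The change was therefore not shared by both strains that carry the tdp-1 allele. No other gene tested lay within 10 kb of T03D3.5.

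**Figure D1:**
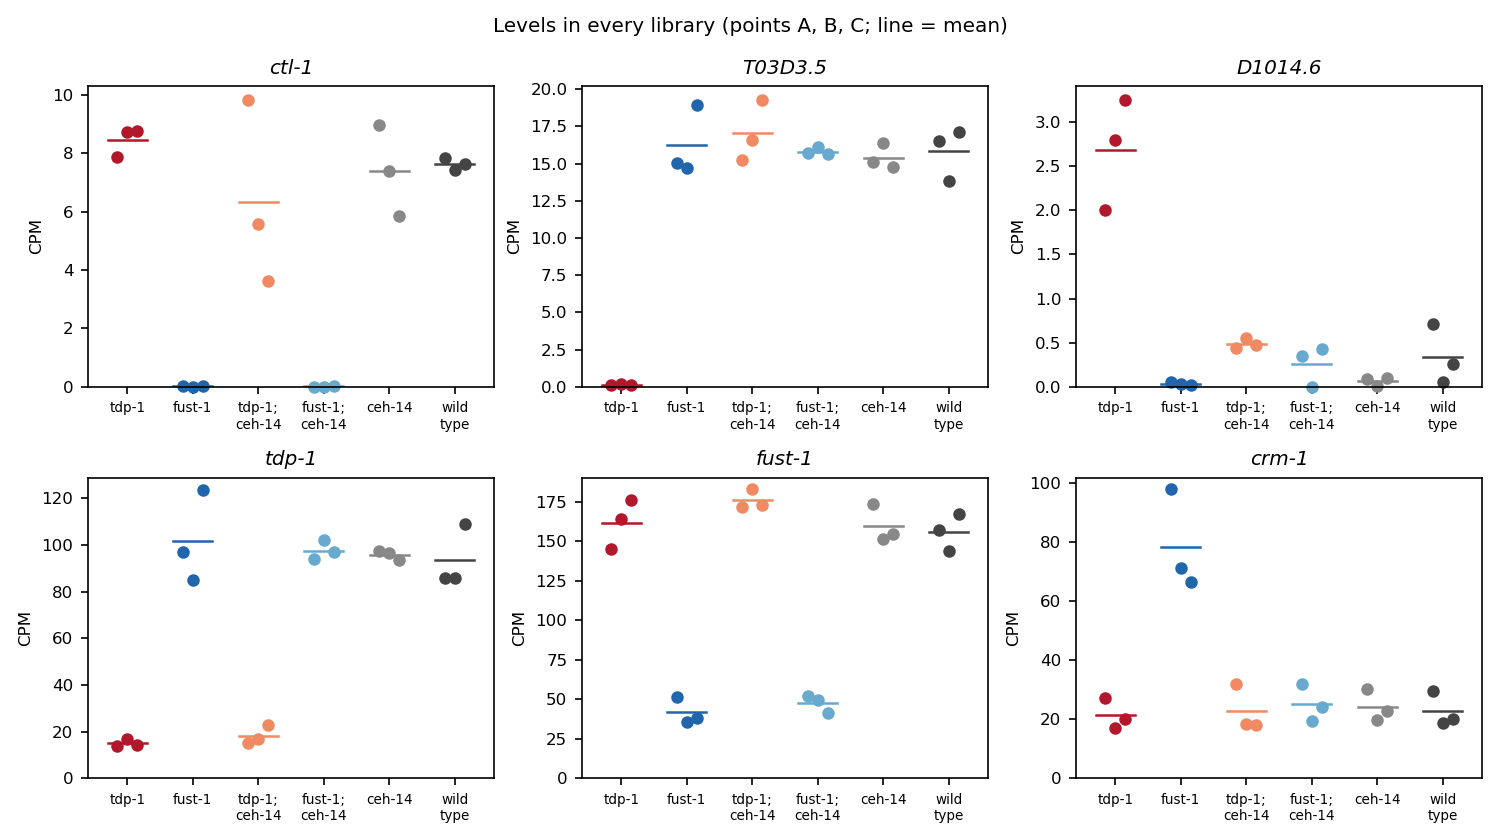
Levels in CPM (vertical axis, linear from 0) of ctl-1, T03D3.5, D1014.6, tdp-1, fust-1 and crm-1 in the 18 libraries, in 6 genotypes; each point is one library and each line the mean of 3. The fust-1 and fust-1; ceh-14 points lie at or next to 0 for ctl-1, while for T03D3.5 the tdp-1 points alone do, between 0.0894 and 0.196 CPM.

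D1014.6 lies on chromosome V (positions 8121168 to 8123470, plus strand) among genes of the same strand. It had 2.003, 2.80 and 3.24 CPM in the tdp-1 libraries, against 0.0529, 0.0276 and 0.0162 CPM in the fust-1 libraries. With 380 reads in tdp-1 and 5 in fust-1 the ratio was 82.0 (95% counting interval 34.8 to 254). The log2 fold change was 6.28 ± 0.481 (SE, adjusted p = 0.0124, edgeR), and wild type held 0.342 CPM on average, above fust-1 and below tdp-1. Without fust-1 C the value was 5.88 at an adjusted p of 0.0738, and it also missed 0.05 without any 1 of the tdp-1 libraries (adjusted p = 0.0507 to 0.0966).

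Its neighbours on both sides, also on the plus strand, were higher in tdp-1. D1014.7, 751 bases away, had 1.41, 1.37 and 2.63 CPM in tdp-1, against 0.176, 0.248 and 0.146 CPM in fust-1 (log2 fold change 3.27 ± 0.429 (SE), adjusted p = 0.0942, edgeR). D1014.5, 214 bases away, had 5.51, 5.01 and 7.13 CPM in tdp-1, against 0.546, 2.43 and 0.276 CPM in fust-1 (2.46 ± 0.760 (SE), adjusted p = 0.216, edgeR). Neither passed the threshold, although the groups did not overlap in either. The 4 other tested genes within 10 kb had log2 differences of -0.47 to 0.32, so the higher levels covered these 3 tested genes and not the genes beyond them. D1014.5 was named after its values were seen.

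The rule for named genes gave 15 genes in each direction. Beyond the 3 called genes and D1014.6, 13 were higher and 13 were lower, at adjusted p of 0.0513 to 0.0942, and in all 26 the groups did not overlap. Over all genes tested, the libraries did not overlap in 31.2% (16.2% higher and 15% lower in tdp-1). The 26 genes were picked by small p from these same libraries, which favours groups that do not overlap, so nothing is read from that count. The 13 higher genes had log2 fold changes of 1.63 to 4.75, and the 13 lower genes of -2.92 to -1.38. The first of the higher genes was Y71G12B.18, with 1.72, 2.16 and 3.57 CPM in tdp-1, against 0.123, 0.0828 and 0.0648 CPM in fust-1 (4.75 ± 0.468 (SE), adjusted p = 0.0513, edgeR). The gene pycr-1, which encodes pyrroline-5-carboxylate reductase, the last enzyme of proline synthesis, had 20.01, 25.6 and 26.5 CPM in tdp-1, against 6.82, 7.73 and 7.99 CPM in fust-1 (1.69 ± 0.198 (SE), adjusted p = 0.0693, edgeR). The others on the higher side included the astacin metalloprotease gene nas-30 (2.996 ± 0.424 (SE), adjusted p = 0.0942, edgeR) and the cuticle collagen genes bli-6 and col-79, described with the other collagens.

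Among the lower genes, crm-1 was the one of highest level. It encodes a cysteine-rich membrane protein that acts in BMP signalling. It had 27.3, 17.05 and 20.2 CPM in tdp-1, against 97.8, 71.05 and 66.4 CPM in fust-1 (log2 fold change -1.86 ± 0.256 (SE), adjusted p = 0.0942, edgeR). Wild type held 22.7 CPM on average, near tdp-1, and so did all other genotypes but fust-1. A WD-repeat protein gene, wdr-54, had 0.912, 0.756 and 0.946 CPM in tdp-1, against 9.44, 4.69 and 4.56 CPM in fust-1, and T27A1.2 had 1.001, 1.09 and 0.734 CPM in tdp-1, against 4.67, 5.10 and 10.5 CPM in fust-1. For both, wild type stood with tdp-1, at 0.690 and 1.10 CPM on average. The span of T27A1.2 overlaps that of T27A1.3 on the opposite strand, and the strand setting of the counting is not given in the sources used here. In the annotation, however, 0% of the exon bases of either gene lay in exons of the opposite strand.

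Taking the 30 genes of the rule together, with tdp-1 and fust-1 themselves among them, the wild-type mean lay between the means of the strains in all 15 higher genes and in 14 of the 15 lower genes. Over all genes tested it did so in 8990 of 16803, and a ranking by the difference between the strains favours genes in which a further group falls between them, so nothing is read from the count. Of the higher genes, wild-type libraries overlapped the fust-1 libraries alone in 9 and the tdp-1 libraries alone in 2. Of the lower genes, wild-type libraries overlapped the fust-1 libraries alone in 6 and the tdp-1 libraries alone in 7. By these overlaps, in 15 of the 30 genes tdp-1 alone stood apart from the wild-type libraries, and in 9 fust-1 alone did.

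**Figure D2:**
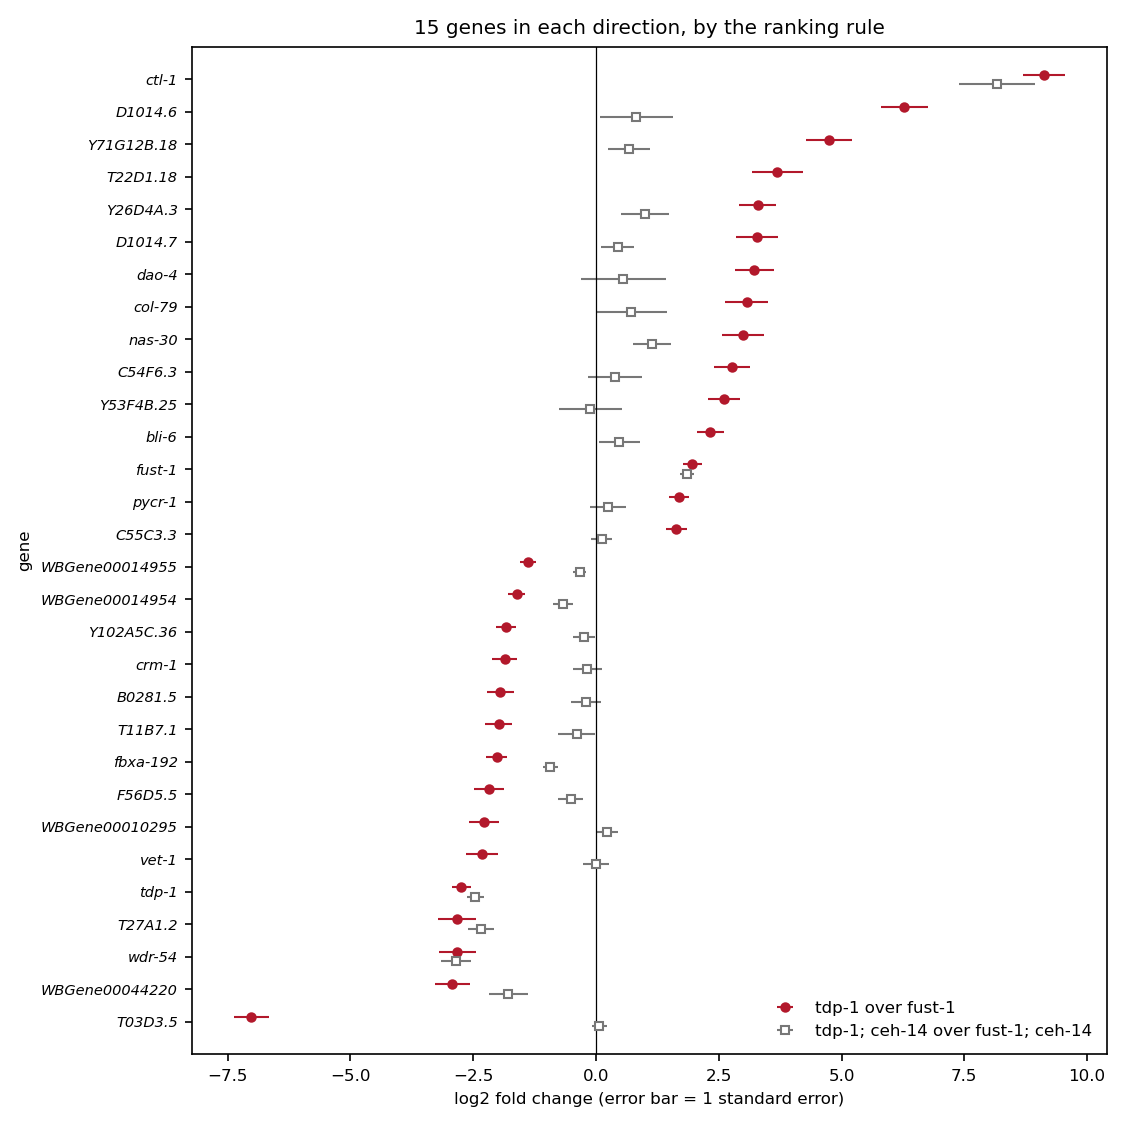
Log2 fold change with 1 standard error (horizontal axis) of the 30 genes of the ranking rule, as filled circles for tdp-1 over fust-1 and open squares for tdp-1; ceh-14 over fust-1; ceh-14. The genes ctl-1, tdp-1, fust-1, wdr-54 and T27A1.2 have both symbols close together, whereas T03D3.5 has -7.02 in the first comparison and 0.07 in the second.

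The same pair of losses was also sequenced in the ceh-14 background, in libraries that are not part of the direct contrast. Of the 29 genes of the rule with a value in both, 26 had the same sign there, and 10 had the same sign at an unadjusted p under 0.05, a level that 18.4% of all genes tested in both reached in either direction. Both counts include tdp-1 and fust-1, whose direction is set by the genotypes. Of all genes at an unadjusted p under 0.05 in the direct contrast (edgeR), 70.4% of the higher and 62.4% of the lower kept their sign. Whatever their direct contrast, 54.6% of genes tested in both were above 0 in the double mutants, so the 2 shares have unlike baselines. Over all genes tested in both, the log2 fold changes correlated at 0.19. In tdp-1; ceh-14 against fust-1; ceh-14, 0.0308% of genes passed an adjusted p under 0.05 (0.0185% higher and 0.0123% lower). There ctl-1 had a log2 fold change of 8.16 ± 0.765 (SE, adjusted p = 0.0332, edgeR), tdp-1 of -2.46 ± 0.178 and fust-1 of 1.85 ± 0.145 (both adjusted p = 0.0141). The values of wdr-54 were -2.85 ± 0.308 and of T27A1.2 -2.34 ± 0.257 (SE, adjusted p = 0.0511 and 0.0513, edgeR). For crm-1 the value was -0.18 ± 0.299 and for D1014.6 0.82 ± 0.748 (SE, adjusted p = 0.752 and 0.543, edgeR). Whether the contrast differed with and without ceh-14 was tested as an interaction over 12 libraries, and T03D3.5 alone was called (0.00595% of genes tested in both), with -7.07 ± 0.322 (SE, adjusted p = 1.82e-06, edgeR). The interaction of crm-1 had an adjusted p of 0.339 and that of D1014.6 of 0.257.

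Genes near the deleted loci were looked at separately. Both loci lie on chromosome II, 1842349 bases apart. Of 846 genes tested within 1000000 bases of either, tdp-1 itself was the only gene called, and libraries did not overlap in 32.4%, against 31.2% of all genes tested. On chromosome V, 2 groups of lower genes were neighbours, and they are given gene by gene.

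The first group holds 4 neighbouring genes that the rule named, at positions 16924985 to 16930063, with gaps of 797, 883 and 168 bases. WBGene00044220, WBGene00014954 and WBGene00014955 are annotated pseudogenes, and Y102A5C.36 is protein-coding. WBGene00014954 had 8.10, 8.57 and 9.12 CPM in tdp-1, against 25.2, 25.7 and 28.5 CPM in fust-1 (log2 fold change -1.61 ± 0.171 (SE), adjusted p = 0.0558, edgeR). WBGene00014955 had 14.7, 14.5 and 16.5 CPM in tdp-1, against 40.2, 39.5 and 40.1 CPM in fust-1 (-1.38 ± 0.162 (SE), adjusted p = 0.0693, edgeR). Y102A5C.36 had 3.04, 2.77 and 2.61 CPM in tdp-1, against 10.6, 9.79 and 9.74 CPM in fust-1 (-1.83 ± 0.203 (SE), adjusted p = 0.0671, edgeR).

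In these 3 genes the libraries of each strain lay close together and the groups did not overlap, although no gene passed the threshold. Wild-type libraries spread more widely, with 7.13, 12.6 and 19.01 CPM for WBGene00014954. Of the 8 other genes tested within 10 kb of WBGene00014954, 6 had an unadjusted p under 0.05, all of them lower in tdp-1, and the log2 differences of the 8 were -2.92 to -0.24. Over all genes tested, 7.13% were lower at that p. The 6 include the rest of the group, which the rule had named by small p, so the count is in part set by that choice.

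The second group lies further along the same chromosome, at the F-box gene fbxa-192 (positions 17640672 to 17650527). F-box proteins recruit substrates to ubiquitin ligases. It had 3.04, 2.77 and 3.53 CPM in tdp-1, against 11.3, 12.4 and 14.6 CPM in fust-1 (log2 fold change -2.02 ± 0.214 (SE), adjusted p = 0.0558, edgeR). The pseudogene WBGene00010295, 2955 bases away, had 2.16, 2.04 and 3.03 CPM in tdp-1, against 8.95, 10.4 and 16.2 CPM in fust-1 (-2.28 ± 0.302 (SE), adjusted p = 0.0942, edgeR). Here wild type stood with fust-1, at 11.9, 13.5 and 10.2 CPM for fbxa-192.

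At an unadjusted p under 0.05, 7.13% of all genes tested were lower in tdp-1. Of the 5 other tested genes within 10 kb of fbxa-192, 4 were lower at that p. Besides WBGene00010295, these were the pseudogenes WBGene00010209 and WBGene00010294 and the F-box gene fbxa-108, named after their values were seen, with log2 differences of -1.79, -1.68 and -0.95. In all 4 the groups did not overlap. Genes and pseudogenes of these families can resemble each other, and reads shared between copies cannot be assigned with certainty.

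**Figure D3:**
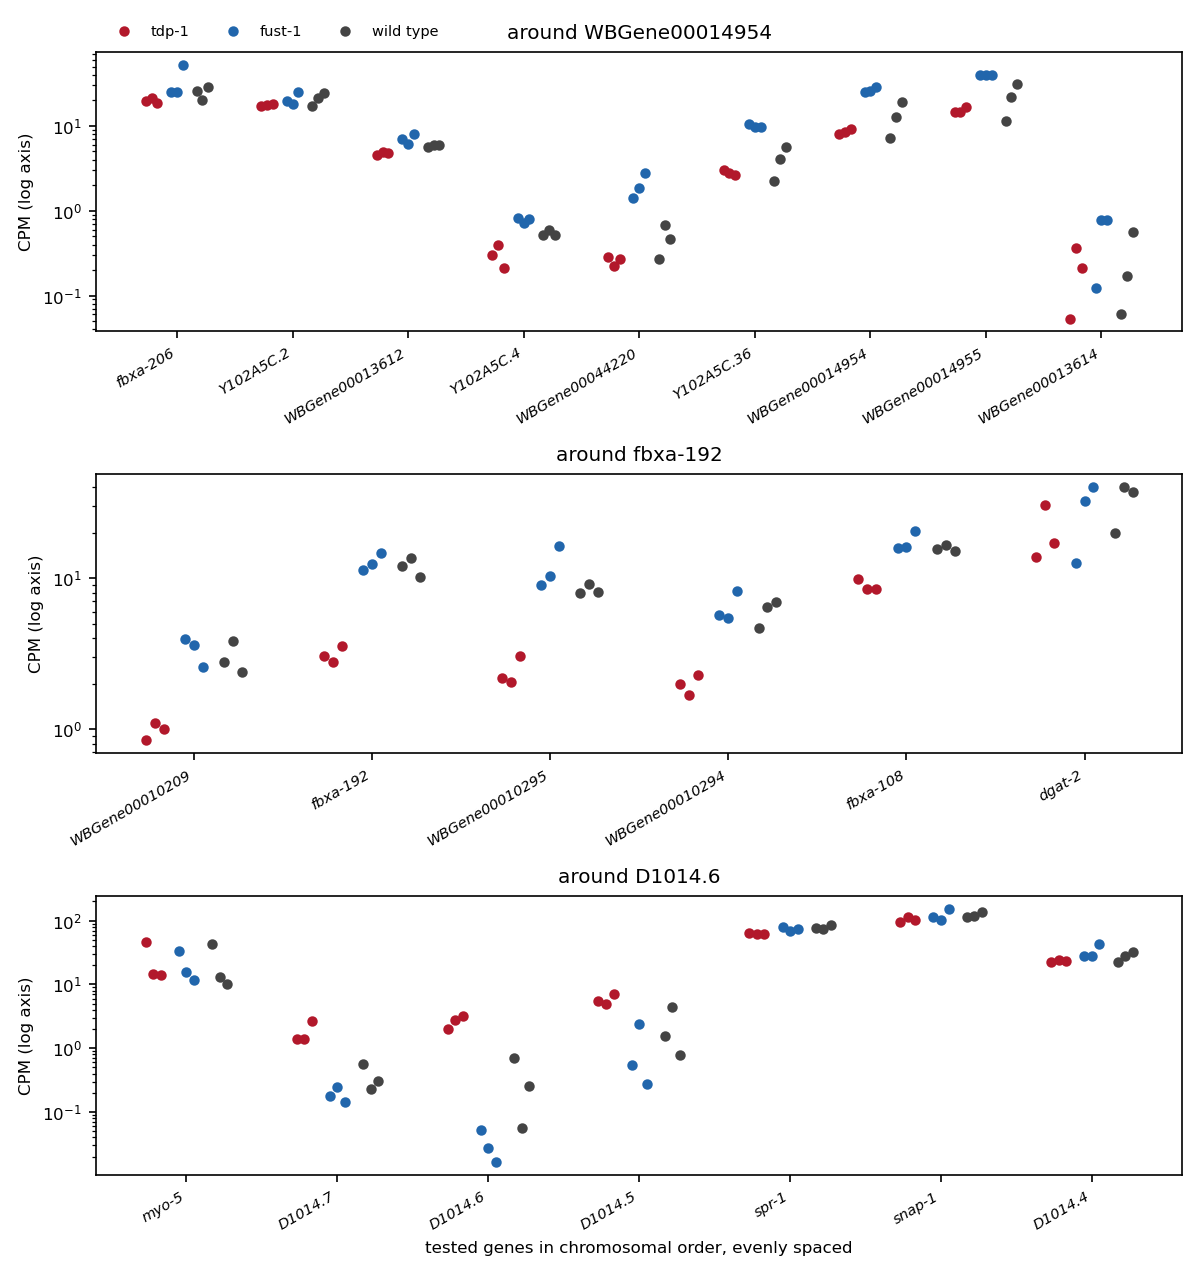
Levels in CPM (vertical axis, log scale) of every tested gene within 10 kb of WBGene00014954, fbxa-192 and D1014.6, in chromosomal order and evenly spaced, in the tdp-1, fust-1 and wild-type libraries, 3 points each. The tdp-1 points lie under the fust-1 points from fbxa-206 to WBGene00014955 (narrowly at Y102A5C.2) and from WBGene00010209 to fbxa-108, and above them at D1014.7, D1014.6 and D1014.5.

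The 26 gene lists were then examined by counts and medians. Since no member other than tdp-1 and ctl-1 was called, the counts are of genes at an unadjusted p under 0.05 and of genes whose libraries did not overlap. The first are to be read against 9.65% higher and 7.13% lower over all genes tested. The second are to be read against 16.2% higher and 15% lower over all genes tested. The median log2 fold change over all genes tested was 0.02. In whole animals, fewer cells of a type and less RNA per cell cannot be told apart.

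Among the 26 lists, those of the cuticle and of the molting cycle stood furthest above the background. The collagenous cuticle is secreted anew by the epidermis at each molt, and collagen genes are switched on in turn within each larval stage. Of 143 cuticle collagen genes tested, 82 were higher in tdp-1 at an unadjusted p under 0.05 and 2 were lower. The libraries did not overlap in 85 that were higher and in 3 that were lower, and DESeq2 called 63 higher and none lower, where it called 2.32% of all genes higher. The edgeR fit of all 18 libraries called 6 higher and none lower, where it called 0.351% of all genes higher, and had 84 higher and 15 lower at an unadjusted p under 0.05. The median log2 fold change of the collagens was 1.61, with 115 of 143 above 0. It ranged from 1.24 without fust-1 A to 2.40 without fust-1 B, and was 1.505 without fust-1 C, where 76 were higher and none lower. The count of lower collagens was 9 without fust-1 A.

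No collagen passed the edgeR threshold, and the smallest adjusted p was 0.0693, of bli-6. BLI-6 is a cuticle collagen whose mutation blisters the cuticle. The gene had 239, 208 and 182 CPM in tdp-1, against 28.1, 54.3 and 43.3 CPM in fust-1 (log2 fold change 2.33 ± 0.274 (SE), edgeR). The collagen gene col-79 had 9.80, 12.4 and 17.5 CPM in tdp-1, against 1.36, 2.46 and 0.940 CPM in fust-1 (3.07 ± 0.439 (SE), adjusted p = 0.0942, edgeR). All 3 tdp-1 libraries were above the wild-type libraries as well, which held 77.9, 109 and 42.7 CPM of bli-6 and 2.37, 7.11 and 1.76 CPM of col-79.

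Among the collagens that shape the body, 13 outside the furrow class were tested, and 12 were higher at an unadjusted p under 0.05 with no overlap of the groups. Their summed level was 1540, 1372 and 1442 CPM in tdp-1, against 202, 424 and 85.8 CPM in fust-1 and 464, 796 and 215 CPM in wild type. Mutations in genes of this set can make animals short, long, rolling or blistered. The gene dpy-5, for instance, had 233, 195.9 and 194 CPM in tdp-1, against 23.9, 53.7 and 5.84 CPM in fust-1 (2.88 ± 0.718 (SE), adjusted p = 0.151, edgeR), and fust-1 C was the lowest of the 6 libraries in 11 of the 13. The exception was dpy-17, with 2.31, 1.82 and 1.60 CPM in tdp-1, against 1.74, 1.43 and 3.23 CPM in fust-1. These genes were grouped after their values were seen.

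The 6 furrow collagens (dpy-2, dpy-3, dpy-7, dpy-8, dpy-9 and dpy-10), which form the circumferential furrows and are made early in each cycle, were less clear. All 6 had positive log2 fold changes, of 0.88 to 1.69, but 1 had an unadjusted p under 0.05 and the groups overlapped in all 6. Their summed level was 64.7, 38.04 and 83.2 CPM in tdp-1, against 12.4, 50.7 and 16.02 CPM in fust-1, with fust-1 B inside the tdp-1 range. The 20 collagens of highest level (mean over 1000 CPM in the 6 libraries) included col-19, an adult-type cuticle collagen. It had 2189, 2266 and 2583 CPM in tdp-1, against 2423, 2480 and 4399 CPM in fust-1. The split by class and level and col-19 were chosen after their values were seen. None of the 20 had an unadjusted p under 0.05, their median was -0.39, and 16 of them were highest in fust-1 C.

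The 123 genes of the molting cycle and apical matrix list were higher in a like share. There were 61 higher and 1 lower at an unadjusted p under 0.05, the libraries did not overlap in 63 higher and 2 lower, and DESeq2 called 30 higher. The edgeR fit of all 18 libraries called 4 higher and none lower. The median was 1.13 (0.94 to 1.40 with 1 library left out, 0.97 without fust-1 C). The hedgehog-related gene grd-14 had 60.5, 71.6 and 61.6 CPM in tdp-1, against 5.58, 15.4 and 6.86 CPM in fust-1 (2.80 ± 0.414 (SE), adjusted p = 0.0942, edgeR). The patched-related gene ptr-18 had 11.2, 12.3 and 14.1 CPM in tdp-1, against 2.34, 4.41 and 2.30 CPM in fust-1 (2.06 ± 0.330 (SE), adjusted p = 0.0942, edgeR). Both were lower in wild type than in tdp-1, with 18.4, 28.1 and 11.1 CPM for grd-14.

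Other members were looked up after their values were seen. The Period-related timing gene lin-42 had 29.7, 26.4 and 34.9 CPM in tdp-1, against 6.52, 9.93 and 1.54 CPM in fust-1 (2.33 ± 0.614 (SE), adjusted p = 0.163, edgeR). The nuclear receptor gene nhr-23, which drives molting, had 52.3, 44.9 and 52.9 CPM in tdp-1, against 58.1, 50.2 and 30.7 CPM in fust-1. The protease gene nas-37, needed to shed the old cuticle, had 51.8, 41.4 and 61.4 CPM in tdp-1, against 55.3, 56.8 and 64.6 CPM in fust-1. In both, the groups overlapped, so not every member was higher. The exact stage of each culture within L4 was not measured here, and its part in these differences was not tested.

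With ceh-14 also lost, the medians of these lists were smaller, over fewer genes. The medians above are over 143 collagens and 123 molting genes. Each comparison was filtered for low counts on its own libraries, so the medians of the 2 comparisons are not over the same genes. In the double mutant pair the median was 0.54 over 139 collagens, of which 26 were higher and none lower at an unadjusted p under 0.05, where 13.7% of all genes tested in both were higher and 4.71% lower. Over 108 molting genes it was -0.02, with 7 higher and 3 lower. At the level of sums, the 123 collagens with a mean of at most 1000 CPM held 14892, 15273 and 14438 CPM in tdp-1, against 5101, 8906 and 9065 CPM in fust-1. The tdp-1; ceh-14 libraries held 7910, 9201 and 8175 CPM, against 6679, 6169 and 8147 CPM in fust-1; ceh-14, so the tdp-1 single mutant held more than the double mutant libraries did.

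**Figure D4:**
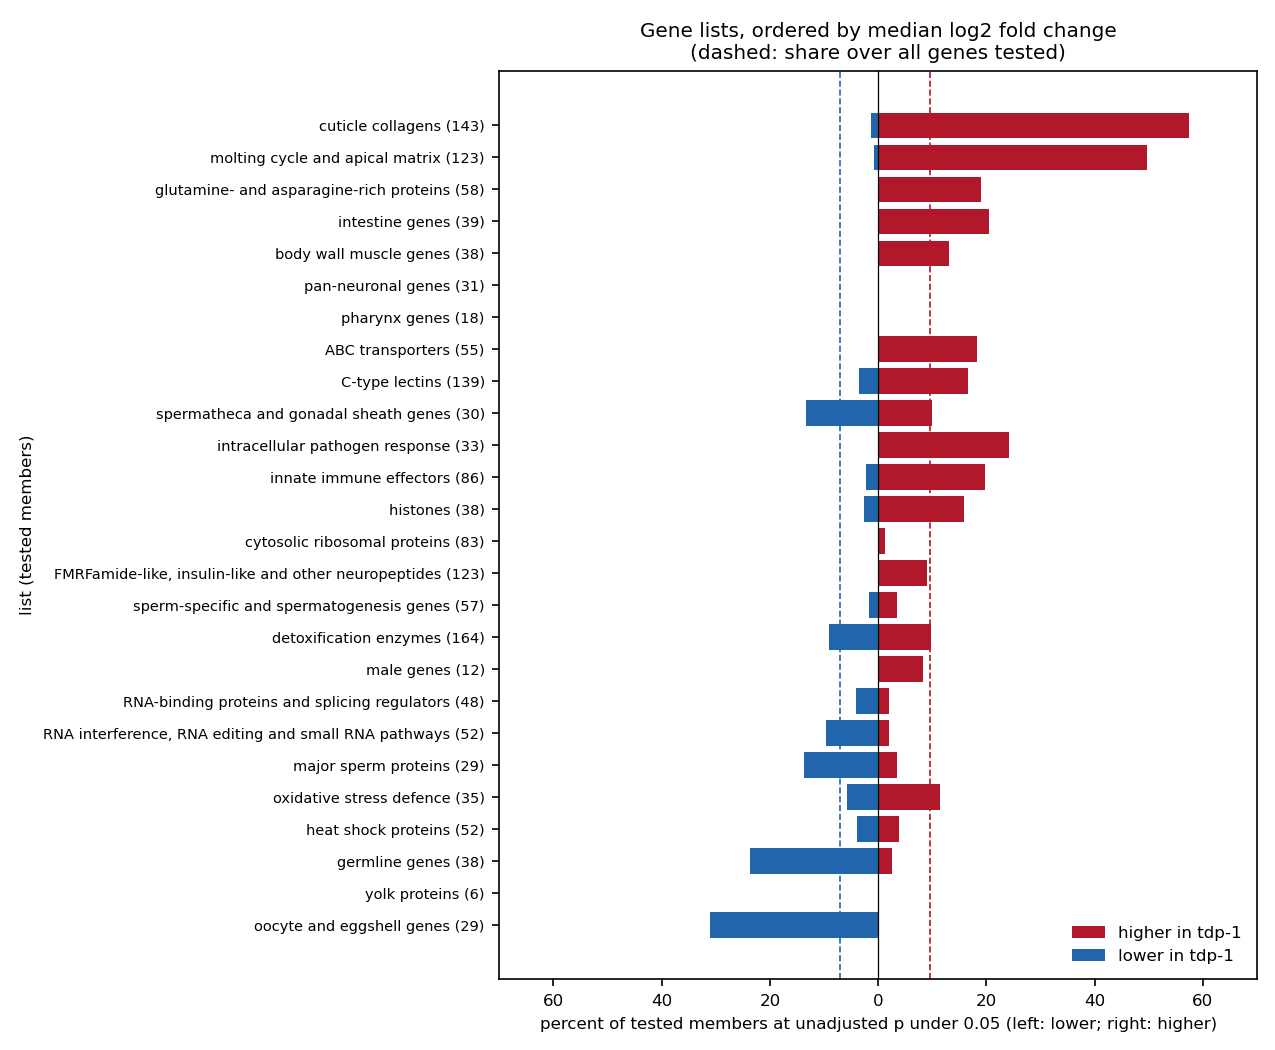
Percent of the tested members of 26 lists at an unadjusted p under 0.05 (horizontal axis), higher in tdp-1 to the right and lower in tdp-1 to the left, with the number tested in parentheses and the lists ordered by their median log2 fold change; dashed lines mark 9.65% and 7.13%, the shares over all genes tested. The bars of the cuticle collagens (82 of 143) and of the molting cycle list (61 of 123) reach furthest to the right, and that of the oocyte and eggshell genes (9 of 29) furthest to the left.

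The glutamine- and asparagine-rich proteins, several of which line the pharyngeal cuticle, came next by median. Of 58 tested, 11 were higher and none lower, with a median of 0.62. It was 0.31 without fust-1 C, with 8 higher, and the count was 5 without tdp-1 A or B, 7 without fust-1 B and 19 without tdp-1 C. With a term for the replicate letter (A, B or C) in the fit, 27 were higher and none lower. The genes abu-12 and abu-13 had the smallest p. The first had 11.3, 12.96 and 13.9 CPM in tdp-1, against 1.69, 2.98 and 0.584 CPM in fust-1 (2.87 ± 0.558 (SE), adjusted p = 0.113, edgeR). The gene pqn-41, which the study examined for its alternative exon, had 63.0, 60.8 and 61.7 CPM in tdp-1, against 80.7, 49.3 and 21.7 CPM in fust-1. The groups overlapped (0.29 ± 0.430 (SE), adjusted p = 0.757, edgeR), and its sign turned without fust-1 C.

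Genes of the oocyte and eggshell had lower levels in tdp-1. Of 29 tested, 28 had negative log2 fold changes, 9 were lower and none higher at an unadjusted p under 0.05, and the libraries did not overlap in 14, all lower. The median was -0.42 (-0.52 to -0.25 with 1 library left out). The count of 9 was 20 without fust-1 C, 13 without fust-1 B, 6 without fust-1 A, and 5, 3 and 4 without tdp-1 A, B and C. Their summed level was 10190, 9066 and 10025 CPM in tdp-1, against 17549, 10807 and 10698 CPM in fust-1, with fust-1 A highest. The A library held the highest sum in every genotype of the series, so the fit without fust-1 A left the letters unbalanced. The caveolin gene cav-1, whose protein is made in the germline, had 2.25, 2.32 and 2.61 CPM in tdp-1, against 10.1, 5.19 and 7.54 CPM in fust-1 (-1.66 ± 0.291 (SE), adjusted p = 0.0953, edgeR). The gene gna-2, which provides the sugar precursor of eggshell chitin, had 89.1, 87.3 and 81.4 CPM in tdp-1, against 124.4, 114 and 153 CPM in fust-1 (-0.59 ± 0.152 (SE), adjusted p = 0.157, edgeR). In the double mutants 15 of the 29 were lower and none higher, with a median of -0.51, where 4.71% of all genes tested in both were lower.

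The germline list leaned the same way. Of 38 genes, 9 were lower and 1 higher at an unadjusted p under 0.05, the libraries did not overlap in 18 lower and 1 higher, and the median was -0.23. Without fust-1 C 19 were lower, and without tdp-1 A, B and C there were 2, 3 and 3. The P-granule gene meg-4 had 14.002, 12.3 and 13.2 CPM in tdp-1, against 37.2, 22.6 and 20.5 CPM in fust-1 (-1.02 ± 0.270 (SE), adjusted p = 0.166, edgeR). The list of small RNA pathways had 5 lower and 1 higher of 52, and its libraries did not overlap in 15 lower and 3 higher. Its count of lower genes was 13 without fust-1 C, 1 without tdp-1 B and 0 without tdp-1 A or C, and its median of -0.09 turned to 0.05 without fust-1 A. The yolk protein genes, which mark the adult intestine, had none of 6 at that level, their median of -0.29 turned to 0.07 without fust-1 A and 0.09 without tdp-1 B, and their sum ranged from 12460 to 37175 CPM in tdp-1 and from 18980 to 48764 CPM in fust-1. In every genotype but tdp-1 the A library held the highest yolk sum.

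Few sperm genes reached this level between the single mutants. Of 57 sperm-specific genes, 2 were higher and 1 was lower, with a median of 0.06, and of 29 major sperm protein genes 1 was higher and 4 were lower, with a median of -0.09. These values moved with single libraries. Without fust-1 A 6 sperm-specific and 8 major sperm protein genes were lower, with medians of -0.13 and -0.35. Without fust-1 B 12 sperm-specific genes were higher, and without fust-1 C the medians were 0.32 and 0.19. In the double mutants, the same lists had 45 higher and 1 lower of 57, and 18 higher and 2 lower of 29. Of all genes tested in both comparisons, 13.7% were higher and 4.71% lower there. These double mutant counts were not followed with 1 library left out. The spermatheca and gonadal sheath list had 3 higher and 4 lower of 30, and 0 to 5 higher and 0 to 6 lower with 1 library left out.

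The medians of the somatic marker lists were above 0, with no gene called. Of 39 intestine genes 8 were higher and none lower (median 0.40), and of 38 body wall muscle genes 5 were higher and none lower (median 0.38). Without tdp-1 A, B and C, the intestine count was 7, 4 and 4 and the muscle count 1, 3 and 0. Among 31 pan-neuronal and 18 pharynx genes no gene had an unadjusted p under 0.05, with medians of 0.32 and 0.27. The pharynx median turned to -0.44 without tdp-1 A, with 3 lower, and was 0.89 without fust-1 A and 0.02 without fust-1 C. The summed level of the pharynx list was high in the A library of every genotype, at 577 to 780 CPM. The B and C libraries held 270 to 389 CPM, so leaving out 1 A library unbalanced the comparison. The pan-neuronal median was 0.12 without fust-1 C. The male list had 1 of 12 higher. The summed level of the intestine genes was 14869, 14440 and 16420 CPM in tdp-1, against 15519, 10768 and 7796 CPM in fust-1, with fust-1 A inside the tdp-1 range. The part of tissue content in the lists above was not tested.

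**Figure D5:**
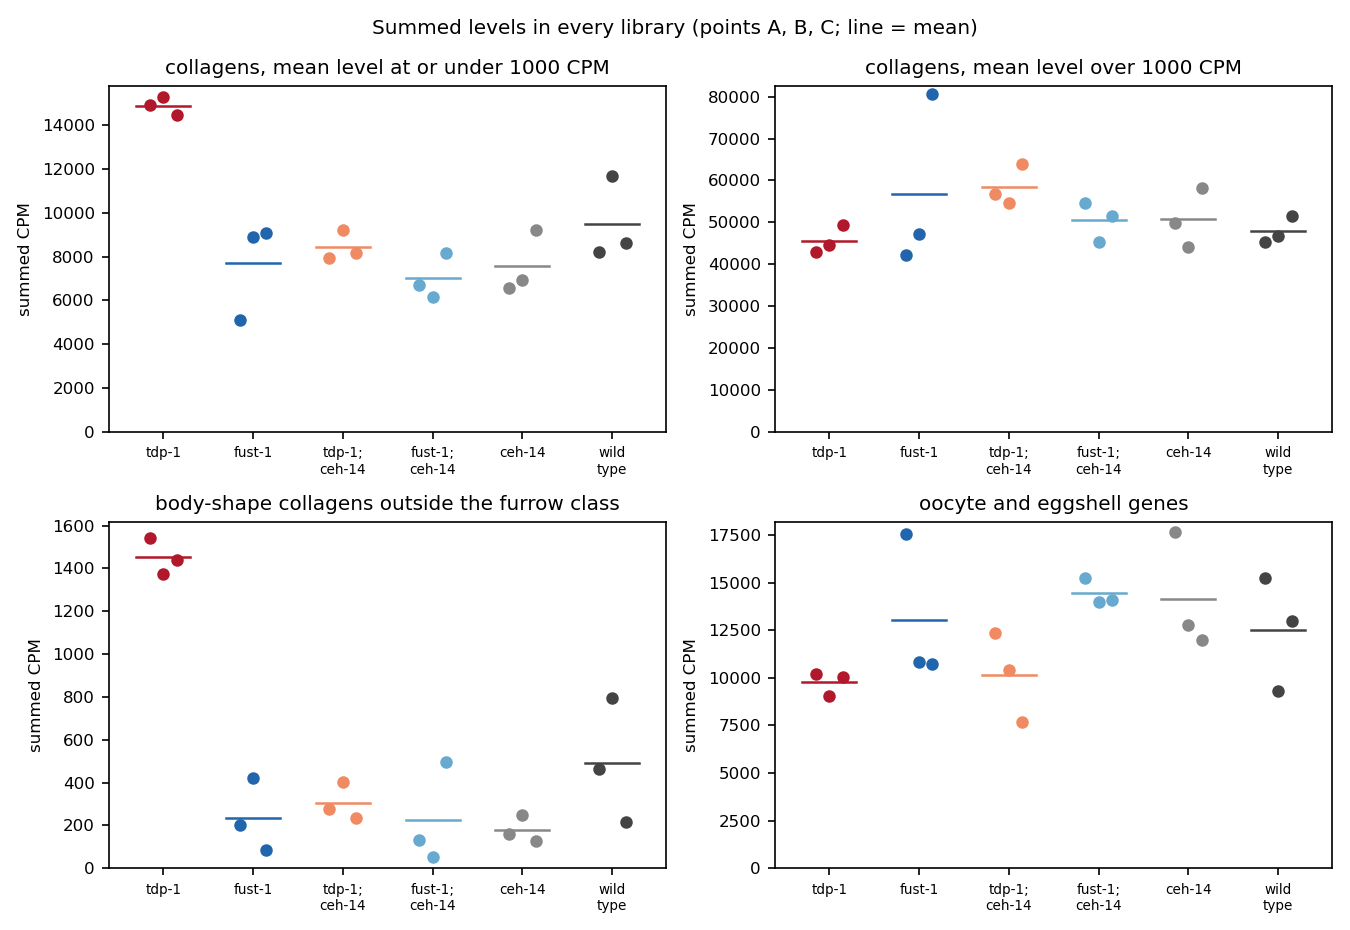
Summed levels in CPM (vertical axis, linear from 0) of the collagens with a mean level of at most 1000 CPM, the 20 collagens above it, the body-shape collagens outside the furrow class, and the oocyte and eggshell genes, in the 18 libraries of 6 genotypes; lines are means of 3. The 3 tdp-1 libraries lie above all others for both lower-level collagen sums, at 14438 CPM and more and at 1372 CPM and more, and fust-1 C lies highest for the 20 abundant collagens.

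Genes of defence were higher in part. Of 139 C-type lectin genes, 23 were higher and 5 were lower. The libraries did not overlap in 28 higher (20.1%) and 10 lower (7.19%), against 16.2% and 15% of all genes tested. With 1 library left out 17 to 27 were higher and 2 to 9 lower. The gene clec-52 had 38.4, 29.9 and 61.3 CPM in tdp-1, against 12.2, 10.9 and 13.4 CPM in fust-1 (1.84 ± 0.289 (SE), adjusted p = 0.0942, edgeR). On the other side, clec-88 had 136, 138 and 134 CPM in tdp-1, against 269, 194 and 240 CPM in fust-1 (-0.78 ± 0.161 (SE), adjusted p = 0.116, edgeR). The lectin gene clec-190, which the study deleted, had 0.680, 0.252 and 0.850 CPM in tdp-1, against 0.511, 0.773 and 2.12 CPM in fust-1, with overlapping groups.

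Other defence lists had 17 higher and 2 lower of 86 innate immune effectors, 8 higher and none lower of 33 genes of the intracellular pathogen response, and 10 higher and none lower of 55 ABC transporters. The innate immune count was 9, 10 and 4 without tdp-1 A, B and C, and 7 were lower without fust-1 A or B. With 1 library left out, 3 (without tdp-1 B) to 11 (without fust-1 C) genes of the pathogen response were higher. For ABC transporters the range was 3 (without tdp-1 C) to 16 (without fust-1 B), with 5 higher and 3 lower without fust-1 C and 5 higher without tdp-1 A or B. The stress and detoxification lists were mixed: 16 higher and 15 lower of 164 detoxification enzymes, 4 higher and 2 lower of 35 oxidative stress genes with ctl-1 among them, and 2 in each direction of 52 heat shock proteins. With 1 library left out, the detoxification list had 7 (without tdp-1 C) to 27 (without fust-1 C) higher and 8 (without tdp-1 B) to 19 (without fust-1 B) lower, the oxidative stress list 3 to 5 higher and 0 to 6 lower, and the heat shock list 1 to 5 higher and 0 to 9 lower. The thioredoxin gene trx-3, of the oxidative stress list, had 16.7, 28.8 and 21.8 CPM in tdp-1, against 9.92, 7.81 and 4.77 CPM in fust-1 (1.58 ± 0.342 (SE), adjusted p = 0.121, edgeR).

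Few regulators of RNA reached this level. Of 48 RNA-binding proteins and splicing regulators, 1 was higher and 2 were lower, and these were fust-1, tdp-1 and the SR protein gene rsp-5, with 99.7, 109 and 103 CPM in tdp-1, against 124.2, 121 and 222 CPM in fust-1 (-0.57 ± 0.237 (SE), adjusted p = 0.294, edgeR). Of 83 cytosolic ribosomal protein genes 1 was higher, 22 had higher libraries without overlap and 1 lower. With 1 library left out, 0 to 7 were higher, 7 of them without fust-1 A. Of 123 neuropeptide genes 11 were higher and none lower, 3 were higher without tdp-1 B or C, 6 were lower without fust-1 A, and the median of 0.09 turned to -0.17 without tdp-1 A. The higher genes included nlp-67, with 3.90, 4.03 and 2.68 CPM in tdp-1, against 0.951, 0.800 and 0.584 CPM in fust-1 (2.19 ± 0.324 (SE), adjusted p = 0.0942, edgeR). Of 38 histone genes 6 were higher and 1 was lower, and 2 were higher without tdp-1 B or C. The homeobox gene ceh-14, intact in both strains, had 6.53, 6.999 and 6.32 CPM in tdp-1, against 6.82, 6.93 and 2.67 CPM in fust-1, and the study gene sav-1 had 11.8, 13.1 and 12.2 CPM in tdp-1, against 11.998, 10.5 and 13.7 CPM in fust-1. For both the groups overlapped.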

How the data were processed

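The series holds 18 whole-animal libraries of 6 genotypes, 3 each. Per the labels and the study's methods, the authors aligned paired reads with STAR to WBcel235 and counted reads per gene with HTSeq, and the deposited values are raw counts per gene. Rows that name no gene (reads assigned to no gene, to several genes or to several positions) were left out of library sizes: 0.461% to 0.738%, 1.87% to 2.75% and 5.89% to 12.2% of a library's reads, in that order. Of 46726 gene IDs, 46364 matched the Ensembl annotation of WBcel235, which gave names and positions.

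The counts of the 3 tdp-1 and 3 fust-1 libraries were tested with edgeR 4.0.16 (R 4.3.3): filterByExpr, TMM factors, glmQLFit and glmQLFTest, with genotype as the only term and Benjamini-Hochberg adjustment over the 16803 genes tested. The double mutants were tested in the same way, and the interaction over 12 libraries. Alternatives were DESeq2 1.42.0, its size factors, no filter, a block by replicate letter, a fit of all 18 libraries together, and leaving out each library. The procedure was tested on simulated counts with known changes. These were drawn with the same spread for every gene and library, unlike the uneven fust-1 libraries. That test therefore does not measure how the procedure performs on these data. Levels are CPM on TMM-scaled sizes over the 18 libraries. The p-values rest on the spread among these libraries only. Intervals on counts cover counting error only.

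Members and gene lists were chosen with earlier results of these data known. Named genes were the 6 genes the study works on, the 15 highest-ranked genes in each direction (non-overlapping called genes by fold change, then genes at an adjusted p under 0.05, then by smallest p), up to 4 tested members of each list by smallest p with at most 2 per direction, and called genes within 1000000 bases of either target. Genes named outside this rule are marked in the text.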

Additional observations from a re-analysis of the deposited data

Results flagged for a closer look

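T03D3.5 differed between backgrounds by a test of the difference itself: tdp-1 over fust-1 minus tdp-1; ceh-14 over fust-1; ceh-14 was -7.07 ± 0.322 on the log2 scale (SE, interaction over 12 libraries, adjusted p = 1.82e-06, edgeR). The gene had 0.0894, 0.196 and 0.0966 CPM in the tdp-1 libraries, against 15.05, 14.7 and 18.97 CPM in the fust-1 libraries, and 15.3, 16.6 and 19.3 CPM in the tdp-1; ceh-14 libraries, against 15.7, 16.1 and 15.7 CPM in the fust-1; ceh-14 libraries. The cause was not tested.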

How the results depend on the processing

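The 3 calls depended on the test. The count of calls was 7 with no filter on low counts, 511 with DESeq2, 107 with all 18 libraries in 1 fit and 0 to 3 with 1 library left out, and 0 without any tdp-1 library, fust-1 A or fust-1 B. At an adjusted p under 0.05, 4 genes passed in the fit reported, 280 with no filter, 942 with DESeq2, 1023 with all 18 libraries, and 2 to 222 with 1 library left out, 222 of them without fust-1 B. In those 6 fits ctl-1 and T03D3.5 had adjusted p of 0.00877 to 0.022 and 0.00877 to 0.0342. The value of tdp-1 was -2.84 to -2.61, at adjusted p up to 0.14. That of fust-1 was 1.88 to 2.10 at adjusted p of 0.0399 to 0.326, under 0.05 in 2 of the 6 fits (without fust-1 A or B). It was 1.96 with no filter, 1.92 with DESeq2 and 1.94 with all 18 libraries, and these 3 had an adjusted p under 0.05. The double mutants had 0 genes called by edgeR (3007 at an unadjusted p under 0.05), 8 with no filter, 400 with DESeq2, 9 with all 18 libraries and 0 to 1 with 1 left out; at an adjusted p under 0.05, 5 against 8 with DESeq2's size factors, 537, 1293 and 21 in the same order, 883 with the block, and 0 to 1760 (1760 without tdp-1; ceh-14 A). The interaction had 1 call, 29 with DESeq2, 5 with all 18 libraries and 1 to 2 with 1 left out, and at an adjusted p under 0.05 it had 3 with DESeq2's size factors, 87, 3 with the block, 7, and 1 to 3. The sign turned without fust-1 C in 6 genes, whose log2 differences with 1 library left out were -0.63 to 0.19 (pat-10), -0.494 to 0.014 (pqn-68), -0.073 to 0.493 (ceh-14), -0.086 to 0.770 (pqn-41), -0.10 to 0.655 (mbk-2) and -0.24 to 0.713 (gld-2). It turned in sav-1 without fust-1 B (-0.022 to 0.123) and in vit-6 without fust-1 C, fust-1 B, tdp-1 A or tdp-1 C (-0.31 to 0.837). None of these was called.

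The replicate letters were checked for pairing. Deviations of libraries with the same letter correlated at 0.34 (A), 0.10 (B, 0.0968 before rounding) and 0.22 (C). The limit for pairing was 0.1, which B missed narrowly, and tdp-1 B was closer to fust-1 C (0.18). The letters were therefore not taken as pairs, and the fit reported has no term for them. The A libraries did share a pattern, and between the double mutants they correlated at 0.56. On the second principal component of the 18 libraries (19.1% of the variance), the A libraries of every genotype lay at 11.4 to 25.8. The B and C libraries lay at -16.6 to 1.44. What the letters stand for was not tested. With the replicate block, 2 genes were called (ctl-1 and T03D3.5), 4 passed an adjusted p under 0.05, and tdp-1 had -2.74 and fust-1 1.98. Some list counts at an unadjusted p under 0.05 moved with the block. There were 87 higher and 5 lower collagens, and 66 higher and 1 lower molting genes. The glutamine- and asparagine-rich list had 27 higher and none lower, and the oocyte and eggshell list 8 lower and none higher.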

Other observations

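The half-ABC-transporter gene haf-6, on chromosome I, did not separate the strains but set both apart from the rest of the series. It had 37.1, 37.1 and 41.3 CPM in the tdp-1 libraries and 37.4, 37.97 and 50.2 CPM in the fust-1 libraries, against 7.56 to 10.8 CPM in the other 12 libraries, wild type and both double mutants included. Among tested genes with over 1 CPM in each of these 6 libraries, it was the only gene whose lowest level there was over 2 times the highest of the other 12. It was chosen after its values were seen.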
